A study of Mus musculus with 12 samples.

Results

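The paxillin and zyxin groups of LIM domain adhesion proteins were followed as 9 genes out of the 20409 genes counted in ORFtag screens of mouse embryonic stem cells. The genes were chosen by name: the paxillin family (Pxn, Tgfb1i1 and Lpxn), the zyxin family (Zyx, Lpp and Trip6) and the Ajuba family (Ajuba, Limd1 and Wtip), with 3 genes in each. The choice was made with earlier results of these data known. The paper names Pxn among its activator hits and reports that tethering it was enough to activate transcription. ORFtag uses a retroviral cassette with a PGK promoter, neomycin resistance, the tag and then a splice donor, which lands in the genome and splices the tag onto the next exon of the gene downstream. All groups received such cassettes as a mixture of 3 reading frames. The 12 libraries fell into 6 groups of 2 biological replicates, sorted and unsorted cells in each of 3 screens.

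The activator screen used a wild-type embryonic stem cell clone with 7 TetO sites and an inactive minimal promoter (pMYLPF) before a Puro-IRES-GFP reporter on chromosome 15, and a tag holding the TetR DNA-binding domain, and its sorted cells had raised GFP. The repressor screen used the same kind of tag in a clone whose 7xTetO sites lay between pEF1-BFP and the active pPGK promoter of Puro-IRES-GFP, also on chromosome 15, and its sorted cells had reduced GFP. The third screen, for regulators acting after transcription (post-transcriptional gene regulators, PTGR), used the λN peptide as tag and a Puro-IRES-GFP reporter with 10 boxB sites in its mRNA, integrated at random. Its sorted cells went through repeated sorts for reduced GFP and, after Cre removal of the boxB sites, a last sort for higher GFP. Each reporter line was 1 clone, the fusions were driven by the cassette promoter and not by the gene's own, and neither first exons nor genes without introns could be tagged. The libraries counted insertion sites in DNA and held no expression, so the identity of the cells could not be checked against marker genes.

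An insertion was counted once per position and library and assigned to a gene when the nearest downstream exon on its strand lay within 200 kb. The sorted libraries held 14705 to 60980 assigned insertions and the unsorted libraries 54088 to 233799. Summed over replicates, the activator screen had 32102 sorted insertions, the repressor screen 37470 and the PTGR screen 119540, against 1022126 in the 6 unsorted libraries together, which served as the background of every screen.

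Paxillin and zyxin proteins are adaptors of focal adhesions, where integrins connect the extracellular matrix with the actin cytoskeleton. They share tandem LIM domains, zinc-binding protein interaction modules at the C-terminal end, behind N-terminal stretches that bind kinases, actin regulators or other adaptors. Several of them also pass through the nucleus, where they are known as partners of transcription factors, and the Ajuba family binds the LATS kinases of the Hippo pathway.

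What a cassette can attach to depends on the acceptor that it splices to. The acceptor of exon 2 is shown for the members in which this exon begins within the coding sequence and which belong to the paxillin or Ajuba family, since these families differ in how much protein follows it. Lower case letters are the last 20 bases of the intron and capitals the first 10 bases of the exon, read 5′ to 3′ on the strand of the gene (GRCm38).
Pxn: tggacaccctctctttgcagATGCCCTGCT
Tgfb1i1: ctgagggcctctcaccacagATGCCCTGCT
Lpxn: tcttgtgtcctgggacatagATGCCTTATT
Ajuba: cccgactcttcttatctcagGCACCTGTAT
Limd1: tctgacttggtgcctttcagGTTCCTGTGT
Wtip: cctctgctcctccctcacagGCATTTGTAT
These stretches lie at chr5:115544323-115544352 (plus strand) for Pxn, chr7:128248157-128248186 (plus) for Tgfb1i1, chr19:12803913-12803942 (plus) for Lpxn, chr14:54573484-54573513 (minus) for Ajuba, chr9:123500111-123500140 (plus) for Limd1 and chr7:34125577-34125606 (minus) for Wtip. Pxn and Tgfb1i1 were identical in all 10 exon bases, and each shared 7 of 10 with Lpxn. Ajuba shared 8 of 10 exon bases with Wtip and 7 of 10 with Limd1, but 3 of 10 with Pxn.

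In the paxillin family, 13 coding bases precede exon 2 in each of the 3 genes, so that 99.3% of the Pxn coding sequence, 99.1% of that of Tgfb1i1 and 98.9% of that of Lpxn follow the acceptor. In the Ajuba family, the first exon carries much of the protein, with 1033 of 1641 coding bases before exon 2 in Ajuba, 1384 of 2004 in Limd1 and 571 of 1194 in Wtip. The remaining coding bases are close in number (608, 620 and 623), and exon 2 has the same length in all 3 genes. In the zyxin family, exon 2 of Zyx and of Lpp precedes the start codon or carries it, with 0 coding bases before it, and that of Trip6 follows 109 of 1440 coding bases.

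**Figure D1:**
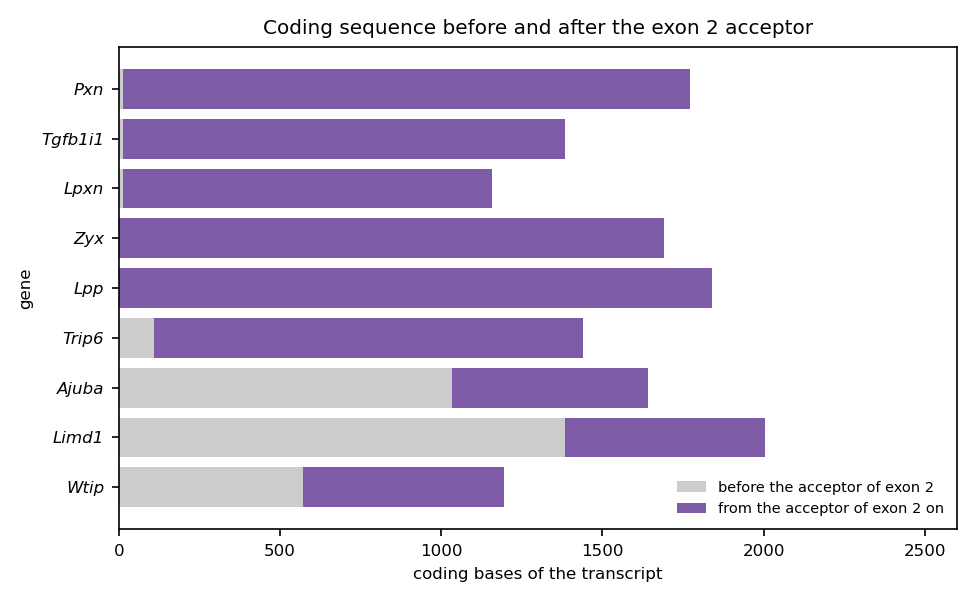
Coding bases before (grey) and after (purple) the exon 2 acceptor in 1 annotated transcript of each of the 9 genes, with genes on the vertical axis and bases on the horizontal axis. The acceptor stands 13 coding bases into the 3 paxillin family genes and 571 to 1384 coding bases into the 3 Ajuba family genes.

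Members differed widely in how often they were hit before any sorting. Over the 6 unsorted libraries, Ajuba had 139 insertions, Pxn 130 and Lpxn 107, more than 89.7%, 88.9% and 86.3% of all genes, whose median was 15. Lpp had 34 and Limd1 27. Wtip had 10, Trip6 9, Zyx 4 and Tgfb1i1 3, all below the median gene. The background therefore set how many sorted insertions a call needed: in the activator screen, 16 for Pxn or Ajuba, 14 for Lpxn, 9 for Lpp, 8 for Limd1 and 5 for Zyx.

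Pxn encodes paxillin, the focal adhesion scaffold that binds FAK and vinculin. The sorted activator libraries held 82 and 210 Pxn insertions, which were 47.1 and 143 per 10000 assigned insertions (mean 94.97 ± 67.7, SD, n = 2). Unsorted cells of the activator line held 14 and 55, those of the repressor line 18 and 19 and those of the PTGR line 21 and 3, which were between 0.555 and 2.65 per 10000 (mean 1.17 ± 0.749, SD, n = 6). Both sorted libraries thus stood above all 6 unsorted ones, and the lower of them stood 17.8-fold above the highest unsorted library.

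In a one-sided Fisher's exact test on the summed insertions, the log2 odds ratio of Pxn in the activator screen was 6.17 ± 0.15 (SE from counting error; 95% interval 5.87 to 6.48), with 292 sorted insertions where 4.08 were expected from the background. The adjusted p was 1.90e-331 (Benjamini-Hochberg over 2842 genes that had 3 or more sorted insertions). A call required an adjusted p below 0.001 with a log2 odds ratio no lower than 1, and 4.64% of the genes tested in the activator screen (132) met it. Among the members, 2 had enough sorted insertions to be tested and 1, Pxn, was called. Within the 132 called genes Pxn ranked 8th by sorted insertions and 19th by log2 odds ratio, and it held 0.910% of all sorted activator insertions. The Fisher test sums the replicates and takes no account of the spread between them. edgeR's quasi-likelihood test over the 4 activator libraries, which does, gave a log2 fold change of 5.76 for Pxn (adjusted p = 9.45e-17). With the replicate number as a block edgeR gave 5.79 (adjusted p = 1.80e-49), but with the bias-adjusted estimate of the spread in that blocked fit the value was 5.78 and the call was lost (adjusted p = 0.153), as were all calls in every screen. The 2 against 2 libraries alone allow no two-sided exact permutation p below 0.333.

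**Figure D2:**
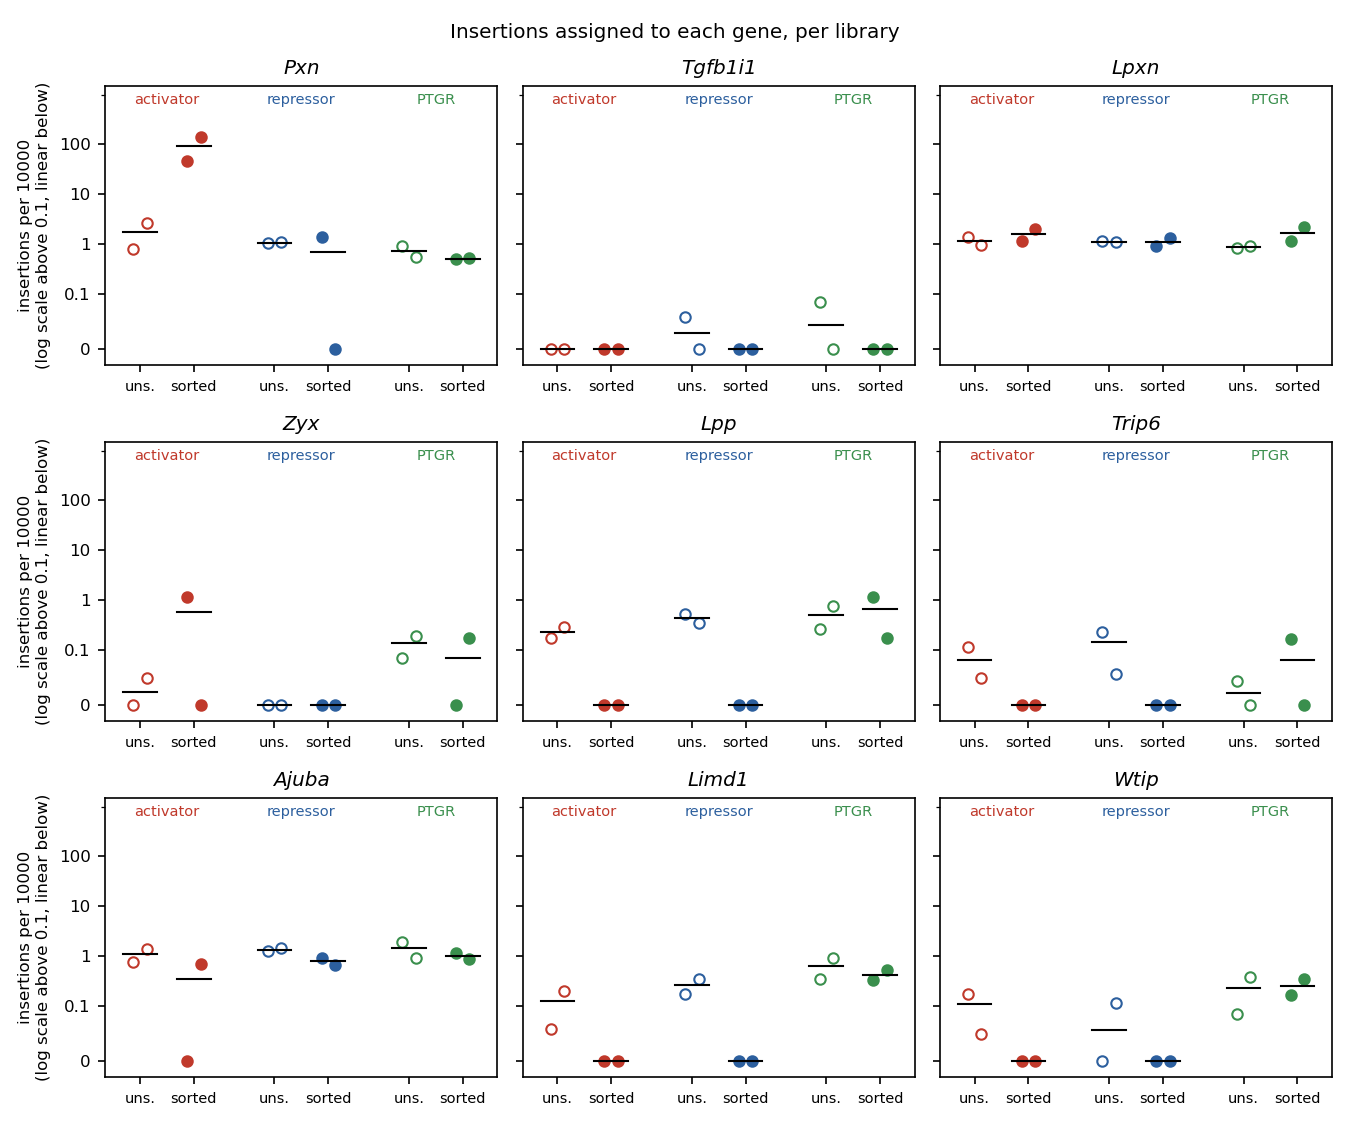
Insertions of each of the 9 genes per 10000 assigned insertions in the 12 libraries, with open circles for unsorted and filled circles for sorted libraries, a bar at the mean of each pair, and a vertical axis that is logarithmic above 0.1 and linear below. The sorted activator libraries of Pxn, at 47.1 and 143, stand above every other point.

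The 2 sorted libraries shared 5 Pxn positions, which were 6.10% of the positions of replicate 1 and 2.38% of those of replicate 2, and over all genes they shared 2.21% of the positions of replicate 1. Sorted replicate 2 shared 28 Pxn positions with unsorted replicate 2 of the same screen, 13.3% of its own and 50.9% of those of the unsorted library, against 19.2% of its own over all genes. Sorted replicate 1 shared 3 Pxn positions with unsorted replicate 1, 3.66% of its own and fewer than the 5 it shared with sorted replicate 2. Over all genes it shared 5.17% of its positions with unsorted replicate 1. For Pxn, the higher share with the unsorted library of the same number thus held in replicate 2 only. To set beside the 50.9%, over all genes sorted replicate 2 shared 2824 of the 207613 positions of unsorted replicate 2. Counting only sorted positions that no unsorted library held left 75 and 179 insertions and a log2 odds ratio of 5.97. Shared positions were taken out of the sorted Pxn count only, not out of the sorted total or the background. This removal could therefore only lower the ratio.

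Orientation separated the Pxn insertions further. The cassette can splice only to exons on its own strand, and in the sorted activator libraries 292 Pxn insertions ran in the sense direction and 2 were reversed, a sense share of 99.3% ( 95% Wilson interval 97.6 to 99.8). In the unsorted libraries 130 were sense and 68 reversed, a sense share of 65.7% (58.8 to 71.9). The reversed Pxn insertions in sorted activator cells were 2 in replicate 1 and 0 in replicate 2, too few to be tested. In the same test on reversed insertions, calls were made for 3.14% of tested genes in the activator, 5.61% in the repressor and 0.5% in the PTGR screen, with no member among them.

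The Pxn gene spans 49312 bp at chr5:115506676-115555987 on the plus strand, and the assigned acceptor was nearly always that of exon 2 (chr5:115544343-115544569, 227 bp), which is used in 6 annotated coding transcripts. Exon 2 took 291 of 292 sorted activator insertions (99.7%) and 127 of 130 unsorted insertions (97.7%; interval 93.4 to 99.2). The sorted cells therefore carried the cassette ahead of the same exon as the unsorted cells did.

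What differed was where ahead of that exon the insertions lay. Of the sorted activator insertions, 229 (78.4%; interval 73.4 to 82.8) were in an intron and 62 (21.2%; 16.9 to 26.3) upstream of the annotated gene, while in the unsorted libraries 63 (48.5%) were in an intron and 65 (50.0%; 41.5 to 58.5) upstream. The upstream share was 22.0% and 21.0% in the 2 sorted replicates and 45.5% to 57.1% in the unsorted libraries with at least 14 Pxn insertions, so these ranges did not overlap. The median distance to the acceptor was 19067 bp and 18517 bp in the sorted replicates and 37800.5 bp over the unsorted libraries together. Single unsorted libraries had medians from 17789 bp (repressor replicate 2) to 46480 bp, so that by this measure the groups overlapped.

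By distance, 115 of the 292 sorted insertions (39.4%) lay 10 to 20 kb from the acceptor, against 28 of 130 unsorted ones (21.5%). Between 20 and 30 kb there were 49 (16.8%) against 5 (3.85%), and beyond 60 kb there was 1 (0.342%) against 19 (14.6%). The shares within the last 10 kb before the acceptor were 18.5% and 20.8%. The stretch upstream of Pxn holds 1 other coding gene, Sirt4, on the opposite strand. These shares are a description of positions within 1 gene, since insertions of 1 library are not replicates of a condition.

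**Figure D3:**
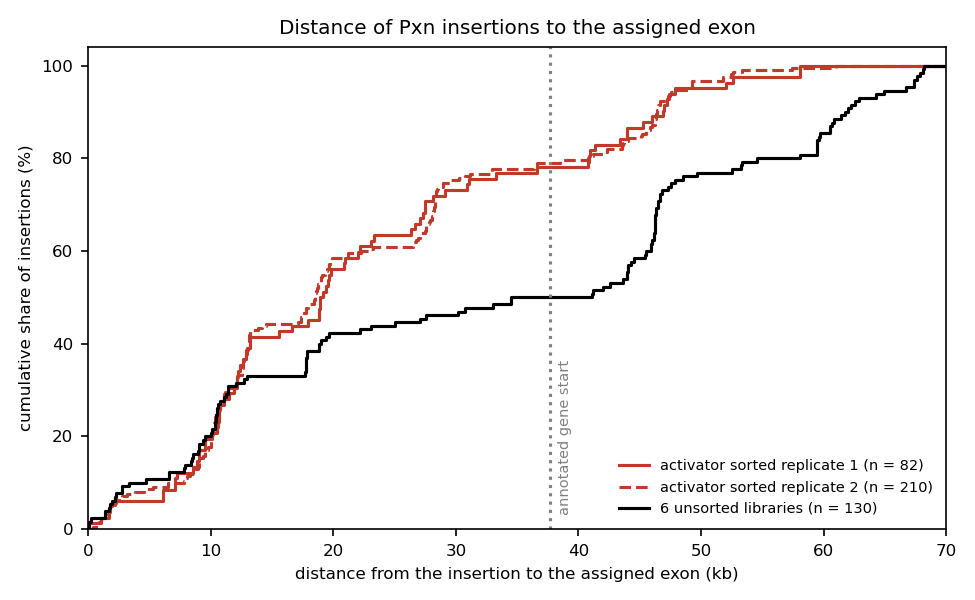
Cumulative share of Pxn insertions (%) against their distance to the assigned exon (kb) in the sorted activator replicates (82 and 210 insertions, red) and in the 6 unsorted libraries together (130 insertions, black), with the annotated gene start as a dotted line. The red curves run together and leave 22.0% and 21.0% of insertions upstream of the gene start, where the black curve leaves 50.0%.

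The other screens held few Pxn insertions. The sorted repressor libraries held 3 and 0 Pxn insertions, or 1.35 and 0 per 10000, with 4.77 expected in all and 17 needed for a call (log2 odds ratio -0.67, interval -2.96 to 0.91, adjusted p = 1 by Fisher's exact test). The sorted PTGR libraries held 3 and 3, or 0.492 and 0.512 per 10000, with 15.2 expected and 38 needed (log2 odds ratio -1.34, interval -2.81 to -0.18, adjusted p = 1 in the one-sided test of an excess). In the PTGR screen both sorted libraries lay below all 6 unsorted ones, although the next lowest, at 0.555, was close. Of the 130 background insertions, 55 came from unsorted activator replicate 2. Against the unsorted PTGR libraries alone, edgeR's two-sided quasi-likelihood test gave a log2 fold change of -0.61 (unadjusted p = 0.408).

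The difference between screens was tested as an interaction in edgeR over all 12 libraries. The change of Pxn from unsorted to sorted was 5.83 higher on the log2 scale in the activator than in the repressor screen (adjusted p = 1.18e-13) and 6.17 higher than in the PTGR screen (adjusted p = 6.17e-16), while the repressor and PTGR screens differed by 0.35 (adjusted p = 0.912). Of the genes fitted, 1.45%, 0.710% and 1.38% were called in these comparisons, and of the 7 members fitted Pxn alone was called. The call rests on the estimate of the spread: with the robust, bias-adjusted estimate the differences were 5.81 and 6.17 but the adjusted p was 0.709 and 0.450, and with the robust estimate alone it was lost on leaving out any of 6 of the 12 libraries in each comparison (adjusted p up to 0.870 and 0.771).

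Tgfb1i1 encodes Hic-5, a paralogue of paxillin known as a nuclear receptor coactivator. It had no insertion in any of the 6 sorted libraries, and the unsorted libraries held 1 in repressor replicate 1, 2 in PTGR replicate 1 and none in the others. With so few insertions in the background, the upper limit of its log2 odds ratio was 6.27 for the activator, 6.04 for the repressor and 4.37 for the PTGR screen. The log2 odds ratio of Pxn lies within the activator limit, so a value of that size is not excluded for Tgfb1i1, although 4 sorted insertions would have been enough for a call there.

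Lpxn encodes leupaxin, the paxillin relative best known from blood cells and osteoclasts. Its insertions numbered 2 and 3 in the sorted activator, 2 and 2 in the sorted repressor and 7 and 13 in the sorted PTGR libraries. The unsorted libraries held 24 and 20, 20 and 19, and 19 and 5 in the same order of screens. For the activator screen the log2 odds ratio was 0.57 (interval -1.08 to 1.84), for the repressor screen 0.03 (-1.87 to 1.43) and for the PTGR screen 0.68 (-0.09 to 1.37), with adjusted p of 1, 1 and 0.428 by Fisher's exact test. The activator limit of 1.84 lies below the lower limit of Pxn, 5.87, although both genes were hit ahead of the same exon with 13 coding bases before it. Both limits cover counting error only. Exon 2 took 132 of 136 Lpxn insertions over the 12 libraries (97.1%; interval 92.7 to 98.9). The insertions themselves lay differently, with 119 of 136 (87.5%) upstream of the gene and a median distance of 71371 bp to the acceptor. That upstream stretch overlaps 3 coding genes, 1 of them on the same strand, and only 40.8% of the unsorted insertions at Lpxn ran in the sense direction.

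**Figure D4:**
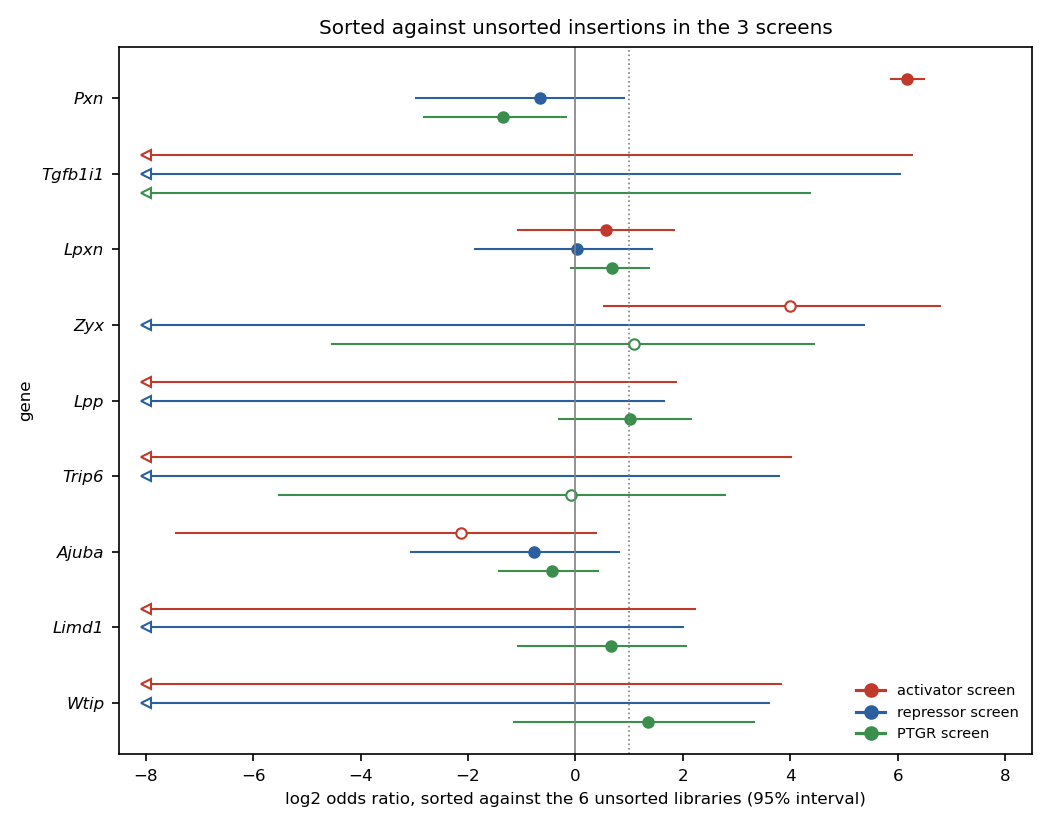
Log2 odds ratio of sorted against the 6 unsorted libraries with 95% intervals for the 9 genes in the activator (red), repressor (blue) and PTGR (green) screens; filled circles had at least 3 sorted insertions, open circles fewer, open triangles no sorted insertion, and the dotted line marks the smallest ratio that could be called. Pxn in the activator screen, at 6.17, is the 1 value whose whole interval lies to the right of the dotted line.

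The zyxin family was rarely hit. Zyx encodes zyxin, which binds Ena/VASP proteins at adhesions and stress fibres. It had 2 and 0 insertions in the sorted activator libraries, none in the sorted repressor libraries and 0 and 1 in the sorted PTGR libraries, against 0, 1, 0, 0, 2 and 1 in the unsorted libraries. Its activator log2 odds ratio was 3.99 (interval 0.53 to 6.80), but both insertions came from 1 replicate, ahead of exons 2 and 5, and 2 fall short of the 3 needed for a test. With a minimum of 1 sorted insertion its adjusted p was 0.475. Reversed insertions gave a like value, with 0 and 3 in the sorted activator libraries against 7 in the background (log2 odds ratio 3.86, adjusted p = 0.0563 by Fisher's exact test).

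Lpp, the lipoma preferred partner, is a zyxin relative that spans 599072 bp (chr16:24393507-24992578). Its sorted counts were 0 and 0 in the activator, 0 and 0 in the repressor and 7 and 1 in the PTGR screen, against 3, 6, 9, 6, 6 and 4 in the unsorted libraries. The upper limits of the log2 odds ratio were 1.87 in the activator and 1.64 in the repressor screen, and the PTGR value was 1.01 (interval -0.31 to 2.15, adjusted p = 0.493). The PTGR value rested on replicate 1 and was -0.96 without it. Lpp insertions were spread over 9 exons, with exon 2 taking 12 of 42 (28.6%; interval 17.2 to 43.6), and 36 of 42 (85.7%) lay in introns.

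Trip6, a thyroid receptor interacting protein that also binds LATS kinases, had a single sorted insertion, in PTGR replicate 1, against 2, 1, 4, 1, 1 and 0 in the unsorted libraries. Its log2 odds ratio could be as high as 4.01 in the activator and 3.79 in the repressor screen.

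In the Ajuba family no member reached a call in any screen. Ajuba, an adaptor of cell junctions and of LATS kinases, had 0 and 1 insertions in the sorted activator, 2 and 1 in the sorted repressor and 7 and 5 in the sorted PTGR libraries. The unsorted libraries held 13, 29, 22, 25, 45 and 5. Its log2 odds ratio was -2.13 for the activator screen (interval -7.44 to 0.38), with too few insertions for a test, -0.76 for the repressor screen (-3.06 to 0.81) and -0.44 for the PTGR screen (-1.43 to 0.41). Its unsorted count was close to that of Pxn, and its activator limit of 0.38 lies below the lower limit of Pxn. Both limits cover counting error only, not the spread between replicates. The fusions also differ, since 37.1% of the Ajuba coding sequence follows the exon 2 acceptor against 99.3% in Pxn.

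Ajuba insertions also used other acceptors more than Pxn did. Exon 2 took 110 of 155 over the 12 libraries (71.0%; interval 63.4 to 77.5), and 7 exons were used in all. In the sorted PTGR libraries it took 5 of 12 (41.7%; 19.3 to 68.0) and in the unsorted libraries 102 of 139 (73.4%; 65.5 to 80.0), intervals that overlap. The insertions sat close to the gene, with 88 in introns (56.8%) and a median distance of 1660 bp.

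Limd1, a tumour suppressor of the same family, had insertions only in the PTGR screen after sorting, 2 and 3, against 1, 4, 3, 6, 8 and 5 in the unsorted libraries (log2 odds ratio 0.66, interval -1.07 to 2.06, adjusted p = 0.747). Against the unsorted PTGR libraries alone that value was -0.11, so its direction was not settled. The upper limits were 2.22 in the activator and 2.00 in the repressor screen. All 32 Limd1 insertions were assigned to exon 2, and 24 of them lay upstream of the gene, where a coding gene on the same strand, Lars2, overlaps the stretch.

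Wtip, which interacts with WT1, had 1 and 2 insertions in the sorted PTGR libraries and none in the other sorted libraries, against 3, 1, 0, 2, 2 and 2 in the unsorted ones. Its PTGR log2 odds ratio was 1.36 (interval -1.14 to 3.32, adjusted p = 0.641), and the upper limits were 3.83 in the activator and 3.61 in the repressor screen.

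Counted over the 9 genes, 3 were tested among repressors and 6 in the PTGR screen, and 0 were called in either, where 8.18% and 0.666% of all tested genes were called. At an unadjusted p under 0.05 there were 0 and 1 (Lpxn in the PTGR screen), and edgeR called 0 members in both. The share of all tested genes under this unadjusted threshold was not computed, so such counts, here and for the lists below, have no reference. No sorted insertion at all was seen for 5 members (activator), 6 members (repressor) and 1 member (PTGR). Of all 20409 genes, 8002, 6965 and 14530 had at least 1 sorted insertion in these screens. Having none was thus the usual case in the activator and repressor screens and does not set the members apart. Apart from Pxn, the 8 other members together made up 2.299 and 2.72 per 10000 insertions in sorted activator cells and 2.62 and 2.99 in unsorted ones. The matching values were 1.80 and 1.97 against 3.39 and 3.33 in the repressor screen, and 4.10 and 4.27 against 3.64 and 4.07 in the PTGR screen. The sorted and unsorted values overlapped in the activator screen, while sorted cells were lower than unsorted ones in the repressor screen and higher in the PTGR screen, and no test was run on the sums.

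These shares are of a fixed total, and genes called in a screen take up much of it. Called genes held 10990 of 32102 sorted activator, 20532 of 37470 sorted repressor and 6061 of 119540 sorted PTGR insertions. With called genes left out of both totals, the log2 odds ratio of Pxn became 6.75 (activator), 0.43 (repressor) and -1.28 (PTGR), so that its sign in the repressor screen depended on the total. That of Ajuba in the repressor screen became 0.34. On these totals the 8 other members made up 2.97 and 5.23 per 10000 in sorted against 2.65 and 3.03 in unsorted activator cells, and 3.98 and 4.35 against 3.52 and 3.45 in repressor cells, so that the repressor direction turned. For the PTGR screen the values were 4.33 and 4.48 against 3.68 and 4.11.

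Genes that work with the members were followed as 3 lists. Of 37 adhesion partners (integrins, kinases, actin-binding adaptors), 8 were tested in the activator, 7 in the repressor and 29 in the PTGR screen, and 0 were called. Of all tested genes, 4.64%, 8.18% and 0.666% were called in these screens. At such shares, 0 calls among so few tested genes does not set the list apart. At an unadjusted p under 0.05 in Fisher's exact test there were 0, 0 and 3 in the activator, repressor and PTGR screens, without a share of all genes beside them. By edgeR, 0 of the list were called as higher or lower in any screen. The median log2 fold change of this list in edgeR was -1.11, -1.50 and 0.10 in the 3 screens, where that of all genes fitted was -0.72, -0.99 and -0.01.

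Of 54 other LIM domain genes, 5 of 15 tested were called in the activator screen, where 4.64% of all tested genes were called. In the repressor and PTGR screens 0 of 8 and 0 of 30 were called, against 8.18% and 0.666% of all tested genes. At an unadjusted p under 0.05 in Fisher's exact test there were 1 and 3 in these screens, again without a share of all genes. In the activator screen edgeR called 3 of the 30 fitted genes of the list as higher, where it called 120 of all 8000 fitted genes. Fhl3, a LIM-only coactivator, had 24 and 36 sorted insertions, with a background of 50 (log2 odds ratio 5.26). The LIM homeodomain factor Isl2 had 7 and 4 against 40 (3.13), and the LIM-only proteins Lmo1 and Lmo4 had 4 and 5 against 24 (3.58) and 2 and 2 against 3 (5.41). Lhx4, another LIM homeodomain factor, had 2 and 1 against 0, so that no ratio could be given. The median log2 fold change of the list was -0.65, -1.01 and -0.04 in the 3 screens.

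Of 21 genes of the Hippo pathway, 5 of 9 tested were called among activators, 1 of 8 among repressors and 0 of 16 in the PTGR screen (0 of these 16 at an unadjusted p under 0.05). The shares of all tested genes called were 4.64%, 8.18% and 0.666%. Testing required 3 or more sorted insertions, and no test was run on any list as a set. The coactivator Yap1 had 70 and 189 insertions after activator sorting against 98 unsorted (log2 odds ratio 6.41), and its paralogue Wwtr1 had 69 and 171 against 111 (6.12). The DNA-binding partners of both, Tead1, Tead2 and Tead4, had log2 odds ratios of 5.63, 5.36 and 5.53. Vgll4, a TEAD cofactor, was the gene called in the repressor screen, with 24 and 10 sorted insertions against 62 (log2 odds ratio 3.90). Of the 3 Ajuba family genes, 0 had enough sorted insertions to be tested in the activator screen, 1 in the repressor and 3 in the PTGR screen. They could therefore not be called in the activator screen, and a contrast with the Hippo genes called there was not tested. Their sorted counts also lay under the number needed for a call: 1 against 16 for Ajuba, 0 against 8 for Limd1 and 0 against 6 for Wtip. The list's median log2 fold change was -0.41, -1.14 and -0.05 in the 3 screens.

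The pattern of Pxn over the 12 libraries was most like that of Bicral, a subunit of a BAF chromatin remodelling complex (Pearson's r = 0.982), Rbbp5, a subunit of histone methyltransferase complexes (0.975), and Ldb1, which binds LIM domains of nuclear LIM proteins (0.967), among 9731 genes with enough insertions to compare. The likeness is of log2 insertions per 10000 and is carried by the sorted activator libraries. In these, Bicral had 348 and 1073 insertions, Rbbp5 110 and 139, and Ldb1 167 and 239. All 3 genes were called in the activator screen, with log2 odds ratios of 5.77, 5.56 and 6.19. Since they were picked for likeness to Pxn over these libraries, their calls are no separate result. The paper lists Ldb1, a known activator, among hits flagged for enriched reversed insertions, which it advises treating with caution.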

How the data were processed

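Insertions were mapped by inverse PCR in 12 libraries of 3 screens, with 2 biological replicates per group. The authors trimmed reads (Trim Galore 0.6.0), aligned them to mm10 with Bowtie2, removed duplicates and low-quality alignments (SAMtools 1.9; versions per the submitters' processing notes) and assigned each insertion to the closest downstream non-first exon of GENCODE vM25. The deposited insertion lists hold other values than counts (positions, exon numbers and distances in bp), and the authors' screen tables hold insertion counts per gene, used here as a check, and their own odds ratios, adjusted p-values and calls, which were not used.

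Here each position was counted once per library and gene when at most 200 kb from its exon. Positions were listed more than once in the repressor unsorted libraries (50.0% of lines) and in PTGR sorted replicate 2 (12.8%). The recount equalled the deposited counts for all 9 members, except for 1 member in the sorted PTGR libraries. Of all 20409 genes, the sorted counts were equal for 20407 in the activator, 20400 in the repressor and 16180 in the PTGR screen. The largest PTGR difference was 75. Unsorted sums were equal for 20224 genes, with a largest difference of 174. Totals and calls given here rest on the recount. The sum of the sorted replicates was set against that of the 6 unsorted libraries in a one-sided Fisher's exact test. Genes with at least 3 sorted insertions were adjusted by Benjamini-Hochberg, and calls required an adjusted p below 0.001 with a log2 odds ratio no lower than 1. A control test used reversed insertions. edgeR 4.0.16 (R 4.3.3; TMM, at least 10 insertions, adjusted p below 0.05) tested each screen and, over 12 libraries, the differences between screens. It was run with 4 estimates of the spread; the robust one was kept for single screens, where the default failed on 1 of the simulated sets, and the default for differences, a choice made after values were seen. Unsorted cells were taken, per the methods, from the transduced cells that were then sorted, so equal replicate numbers may mark 1 cell pool. In the activator screen, sorted replicates 1 and 2 shared 5.17% and 19.2% of positions with the unsorted library of their own number and 2.35% and 1.39% with the other; in the PTGR screen the shares were 19.5% and 6.98% against 0.397% and 1.93%. In the repressor screen they were 8.50% and 8.72% against 10.0% and 5.47%, so replicate 1 shared more with the other number. Insertion counts of equal numbers deviated together by correlations of 0.047, -0.001 and 0.197 only. Fits without the block, as in the authors' merged test, were kept, and blocked fits were alternatives, as were DESeq2 1.42.0, filters, distances, other backgrounds and left-out libraries. Statistics in Python 3.11.15 used SciPy 1.17.1 and statsmodels 0.14.6. Scripts were tested on simulated data.

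Depth was 14705 to 233799 insertions per library. Intervals (95%, Wilson for shares) cover counting error only. Exons, coordinates and sequences came from GENCODE vM21 on GRCm38, in which the exon edges of all 829 member insertions were found. Genes with values were named if they were members, were called in a related list, or were among the 3 most correlated with a called member (log2 of insertions per 10000 plus 0.1, at least 20 insertions). The members and lists were chosen with earlier results of these data known. Reads were not analysed here.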

Additional observations from a re-analysis of the deposited data

Results flagged for a closer look

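In 9 groups of 6 unsorted libraries, 1 per member, a library far from the others was looked for, and chance alone marks about 1 group in 20. In Pxn, unsorted activator replicate 2 stood apart at 2.65 insertions per 10000 against 1.07 in the next library, a gap of 0.752 of the range. Of the 55 Pxn positions in that library, 28 were also held by sorted activator replicate 2. In Limd1, unsorted PTGR replicate 2 stood apart at 0.924 against 0.342, a gap of 0.671 of the range. The Pxn difference between the activator screen and the other screens, 5.83 on the log2 scale against the repressor and 6.17 against the PTGR screen, passed the interaction test in edgeR, with the exceptions given for the other estimates of the spread.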

How the results depend on the processing

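The log2 value of Pxn in the activator screen was 5.22 to 6.83 over 27 alternatives. The call was lost with edgeR's replicate block under the bias-adjusted estimate (5.78, adjusted p = 0.153), where 0 genes were called in any screen. With totals without called genes (6.75) and on sorted positions absent from unsorted libraries (5.97) no test was run, so these values neither keep nor lose the call. It held in all other alternatives. Between screens, Pxn differed by 5.81 from the repressor and 6.17 from the PTGR screen with the robust bias-adjusted estimate (adjusted p = 0.709 and 0.450). With the robust estimate the call against the repressor screen was lost without repressor sorted replicate 1 (11.95) or 2 (4.95), PTGR sorted replicate 1 (5.86) or 2 (5.89), or PTGR unsorted replicate 1 (5.82) or 2 (5.88). Against the PTGR screen it was lost without the same libraries, in that order at 6.15, 6.16, 6.23, 6.24, 5.57 and 6.41. With the default estimate it held without any 1 of the 12 libraries, at 4.69 to 11.95 and 5.04 to 7.37 (adjusted p up to 0.039, without PTGR unsorted replicate 1). The repressor and PTGR screens differed by -5.80 to 1.22 in Pxn when 1 library was left out, with the sign turned without repressor sorted replicate 1 (-5.80) and without PTGR unsorted replicate 1 (-0.25).

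With the replicate block edgeR called 102, 175 and 42 genes in the activator, repressor and PTGR screens, against 120, 195 and 34 without it. The cause of none of the following changes was tested. PTGR calls, 62, were 40 against the background of the same screen, 121 at an adjusted p below 0.05, 39 in the Cochran-Mantel-Haenszel test with replicate block, 34 in edgeR at either filter, 20 bias-adjusted, 29 not robust, 15 bias-adjusted and not robust, and 29 in DESeq2. Repressor calls, 192, were 74 in edgeR at a filter of 1 insertion. Reversed calls were 72 in the repressor screen at 50 kb, against 125, and 29 in the PTGR screen with its own background, against 46. On leaving out 1 library, calls of differences were 44 to 95 for activator against PTGR and 109 to 211 for repressor against PTGR, the lowest of both without PTGR unsorted replicate 1 (44 or 49, and 109 or 112).

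No member other than Pxn changed its call, since none was called, but signs near 0 turned. Lpxn in the activator screen was -0.75 on sorted positions absent from unsorted libraries, and -0.023 to 1.25 in reversed insertions without 1 sorted replicate. Leaving out shared positions, here and for Limd1 below, reduced the gene's sorted count alone and so could only lower the value. In the repressor screen, Lpxn was -0.057 with the screen's own background, -0.060 with the Cochran-Mantel-Haenszel replicate block, -0.047 in edgeR at a filter of 1, and -0.22 to 0.33 on leaving out 1 library. Pxn there was 0.031 in DESeq2, 0.43 with totals without called genes and -0.79 to 0.083 on leaving out 1 library, and Ajuba 0.34 with totals without called genes. In the PTGR screen, Lpp was -0.96 to 1.79 on leaving out 1 library, the lowest without sorted replicate 1, and -1.003 to 1.54 in reversed insertions without 1 sorted replicate. Limd1 there was -0.11 with its own background, -0.49 with the Cochran-Mantel-Haenszel block, -0.18 in edgeR, robust or not, -0.43 with its block, robust or not, -0.34 at a filter of 1, -0.12 bias-adjusted, robust or not, -0.44 bias-adjusted with the block, -0.40 in DESeq2 and -1.66 on positions absent from unsorted libraries. For members with under 10 background insertions, depth limits what any setting can show.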
